A study of Papio hamadryas with 11 samples.

Results

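The DLK1-DIO3 domain is an imprinted region that carries one of the largest miRNA clusters of placental mammals. All mature miRNAs of 49 cluster numbers, from miR-127 to miR-1197, were taken by name from a table of known miRNAs in near-term fetal baboon liver. They came to 73 mature names of the 1921 in the table, on 52 hairpins. The choice was made with earlier results of these data known. Of these 73, 69 had reads and 38 passed the filter on low counts that admitted 218 miRNAs to testing. The names are those of human miRBase, and in humans the cluster lies at 14q32.

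In an imprinted domain only 1 parental copy of a gene is active. The protein genes DLK1, RTL1 and DIO3 are expressed mainly from the paternal chromosome, and the miRNAs, with the long noncoding RNA MEG3, from the maternal one. The miRNAs are cut from long noncoding transcripts, and those that lie antisense to RTL1 are fully complementary to its mRNA and, as shown in mice, direct its cleavage. In mouse and human liver the cluster is known for high levels before birth, low levels in the adult, and reactivation in some liver tumours.

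The study compared livers of baboon fetuses (Papio hamadryas) from 6 control mothers (3 female and 3 male fetuses) with livers of fetuses from 5 obese mothers (3 female and 2 male fetuses), all at 0.9 of gestation. Small RNA was sequenced, and fetuses are named here by maternal group and the number in the labels; in both groups numbers 1 to 3 are females and the higher numbers males. The labels give neither the diet nor the degree of obesity, and the 11 are listed as separate samples with no animal numbers, so the spread behind each p-value is that between samples and may be technical. Levels are CPM, which relate counts to the library's known-miRNA reads, after TMM scaling, a correction for differences in composition between libraries, and are given as mean ± SD.

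The control libraries held 247288 to 319919 reads on known miRNAs and those of the obese group 660569 to 767137, so that 1 read was worth 3.13 to 4.04 CPM before scaling in controls and 1.30 to 1.51 CPM with maternal obesity. The library numbers in the labels, 55 to 60 and 67 to 71, separate the groups as well, so maternal obesity and a batch of libraries cannot be told apart. The liver label was borne out by the hepatocyte miRNAs (miR-122, miR-192, miR-194, miR-885 and miR-148a), which held 429009 to 498852 CPM before scaling in controls and 401140 to 486080 with maternal obesity. Of their 8 tested members 1 was lower with maternal obesity at an adjusted p under 0.05 (edgeR quasi-likelihood test). The counts for the other lists come from the same test, which called 4.59% of all 218 tested miRNAs as higher and 6.42% as lower. Among markers of other cells, the mesenchymal and stellate list held 79973 to 98819 CPM in controls and 92096 to 152208 with maternal obesity (1 of 9 tested members higher), with the highest levels in obese-group fetuses 1 and 2. The endothelial list held 8685 to 15694 and 12194 to 18056 CPM (1 of 2 higher), the leukocyte list 1098 to 2121 and 1019 to 1281 (1 of 5 lower), the erythroid list 6555 to 17315 and 7020 to 14211 (0 of 4), and the biliary list 579.7 to 1576 and 738.8 to 1299 (0 of 4). Muscle miRNAs stood at 31.3 to 97.8 CPM in controls and at 46.9 to 99.4 in 4 obese-group fetuses, against 1024 in obese-group fetus 2. Neural markers (0 to 28.3 CPM over both groups) and placental markers (0 to 6.70 CPM) were at or near 0. None of the muscle, neural or placental miRNAs reached the filter, and the part of other cell types in the results below was not tested. In a whole liver, fewer cells that make a miRNA and less of it per cell cannot be told apart.

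Within the cluster, several livers stood apart from their groups. Control fetus 4 was the highest of the 6 controls for 26 of the 38 tested cluster miRNAs (68.4%), against 71 of all 218 tested miRNAs (32.6%). Obese-group fetus 1 was the lowest of its 5 for 25 of the 38 (65.8%), against 45 of 218 (20.6%), and was the highest for 0. At the other end of the obese group, fetus 2 was the highest for 18 of the 38 (47.4%, against 23.9% of all tested miRNAs) and the lowest for 0, and fetus 3 the highest for 14 (36.8%, against 14.7%).

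The cluster took up 3.11% to 5.40% of known-miRNA reads in the 6 controls, with a median of 3.76%. In obese-group fetuses 1 to 5 it took up 3.72%, 5.90%, 5.49%, 4.23% and 4.70%. The means were 3.95% ± 0.881 (n = 6) and 4.81% ± 0.889 (n = 5), and the groups overlapped. Without control fetus 4 the control mean was 3.66%, and the mean of the obese group was 5.08% without its fetus 1 and 4.54% without its fetus 2. With both arms of mir-411 left out, the share was 3.21% ± 0.794 in controls and 3.59% ± 0.720 with maternal obesity.

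**Figure D1:**
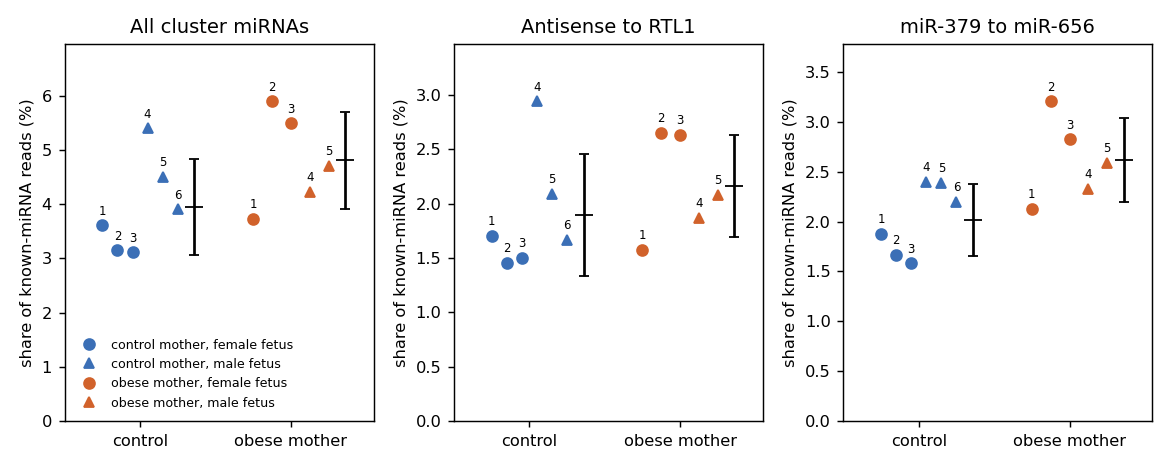
Share of known-miRNA reads (%) held by all cluster miRNAs (left), by those antisense to RTL1 (middle) and by the run from miR-379 to miR-656 (right), with 1 numbered point per fetus, circles for females and triangles for males, and bars for mean ± SD. The maternal groups overlap in each panel; over all cluster miRNAs the 3 control females (3.11% to 3.61%) are the lowest controls and control fetus 4 (5.40%) is the highest.

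Reads were spread unevenly over the members. Together miR-127-3p and miR-411-5p held 61.3% ± 2.30 of the cluster's reads in controls and 65.3% ± 2.00 with maternal obesity. The 10 most abundant members held 91.5% ± 0.683 and 93.3% ± 0.0868. By mean level in controls, 7 tested members exceeded 1000 CPM, 14 lay between 100 and 1000 CPM and 17 lay below 100 CPM. Among all known miRNAs, by reads summed over all 11 libraries, miR-127-3p ranked 11th, miR-411-5p ranked 18th, miR-381 ranked 28th and miR-410 ranked 39th. The deeper libraries of the obese group weigh more in these ranks.

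The rarest members were at the limit of detection. No read of miR-1193, miR-300, miR-323b-5p or miR-380-5p was found among 5268879 reads of all libraries, which allows a level of up to 0.569 CPM (3 reads; counting error only). A further 31 members had reads but did not pass the filter, with at most 27 reads in 1 library. More members had reads with maternal obesity (64 to 67) than in controls (57 to 63). After each library was thinned to 247288 reads the numbers were 60.4 ± 2.51 and 59.3 ± 2.88, so at equal depth the difference was smaller than the spread between fetuses.

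**Figure D2:**
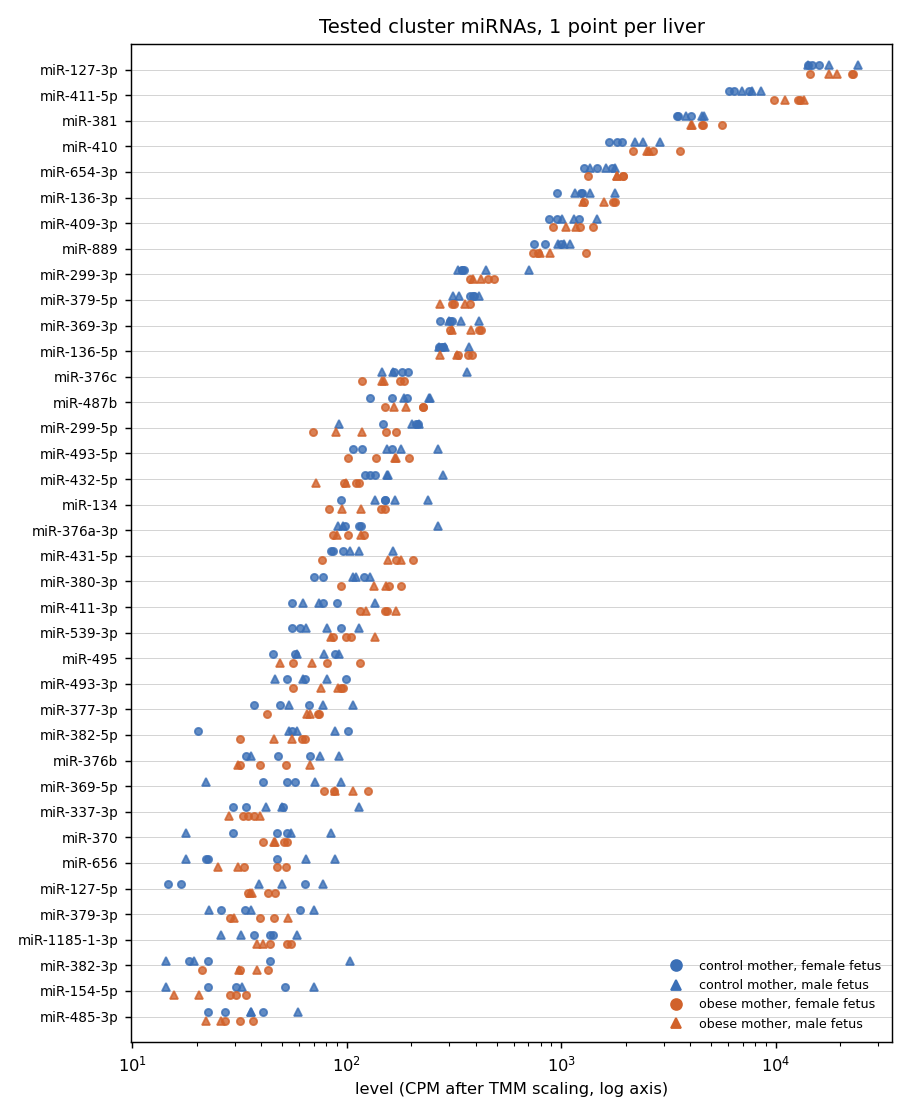
Level in CPM after TMM scaling (log axis) of the 38 tested cluster miRNAs, ordered by mean control level, with 1 point per fetus, blue for control and orange for obese mothers, circles for females and triangles for males. Mean control levels run from 36.7 CPM for miR-485-3p to 16801 CPM for miR-127-3p, and miR-411-5p and miR-432-5p are the members whose groups do not overlap.

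The test of maternal obesity over all 11 livers called 2 of the 38 tested members, both higher, at an adjusted p under 0.05 (edgeR quasi-likelihood test, Benjamini-Hochberg adjustment over 218 miRNAs). Over all 218 tested miRNAs 11% were called, 4.59% as higher and 6.42% as lower. At an unadjusted p under 0.05 there were 7 members, against 23.4% of all tested miRNAs. The groups did not overlap for 2 members, miR-411-5p (higher) and miR-432-5p (lower), against 8.26% of all tested miRNAs (3.21% higher and 5.05% lower). The called share of the cluster lay below that of all tested miRNAs, the share called higher lay near it, and so did the share without overlap.

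The members did not lean in 1 direction over both sexes. Of the 38, 18 had a positive and 20 a negative log2 change, with a median of -0.01 and a range of -0.72 to 0.78. Over all tested miRNAs 43.6% were positive, with a median of -0.05. This balance shifted with single livers. Without control fetus 4, 29 of 42 tested members were positive, with a median of 0.16, against a median of -0.04 over all tested miRNAs. Leaving out obese-group fetus 1 gave 25 positive and 13 negative (median 0.10), and leaving out obese-group fetus 2 gave 15 and 23 (median -0.06). Over all tested miRNAs these 2 fits gave 47.5% and 39.6% positive, with medians of -0.02 and -0.06. At equal depth, with libraries thinned, 31 members were tested and 20 were positive, with a median of 0.22. The 197 miRNAs tested in that setting were 47.2% positive, with a median of -0.04. The tested members were then fewer, so the 2 balances are not of the same members, and the part of depth in the shift was not tested. RLE scaling, the size factors of DESeq2, turned the balance to 21 positive and 17 negative, and total counts gave 17 and 21. Of all tested miRNAs 47.7% and 42.7% were positive in these settings.

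The miRNAs antisense to RTL1 (miR-431, miR-433, miR-127, miR-432 and miR-136) held 1.89% ± 0.559 of known-miRNA reads in controls and 2.16% ± 0.472 with maternal obesity. Of their 6 tested mature miRNAs, 0 passed the edgeR test over all livers, with 4 positive and 2 negative changes and a median log2 change of 0.20. At an unadjusted p under 0.05 there were miR-432-5p (0.00637) and miR-431-5p (0.0469), and DESeq2 called miR-432-5p. The most abundant was miR-127-3p, which ran from 14125 to 24136 CPM in controls with a median of 15306. With maternal obesity it stood at 14433, 22573, 22867, 17620 and 19341 CPM in fetuses 1 to 5. The highest level of all was in control fetus 4, and the groups overlapped. The means were 16801 ± 3843 and 19367 ± 3533 CPM, a log2 change of 0.21 (SE 0.16, edgeR adjusted p = 0.463). It was 0.32 without control fetus 4 (adjusted p = 0.118) and 0.33 without obese-group fetus 1 (adjusted p = 0.281).

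Both arms of mir-136 were highest, within the obese group, in fetuses 2 and 3. The level of miR-136-3p ran from 953.6 to 1771 CPM in controls, median 1238, and was 1280, 1771, 1751, 1260 and 1578 CPM in obese-group fetuses 1 to 5. Its log2 change was 0.25 (SE 0.16, edgeR adjusted p = 0.358). The other arm, miR-136-5p, averaged 292.3 ± 39.5 CPM in controls and 335.2 ± 43.6 with maternal obesity, a log2 change of 0.20 (SE 0.14, adjusted p = 0.398). The groups overlapped for both arms.

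Levels of miR-432-5p were lower with maternal obesity in all 5 livers than in any control. Controls ran from 121.6 to 279.8 CPM with a median of 144.6, on 33 to 76 reads. Obese-group fetuses 1 to 5 had 96.6, 110.8, 113.7, 71.9 and 98.9 CPM, on 53 to 87 reads. The means were 162.3 ± 59.1 and 98.4 ± 16.5 CPM, a log2 change of -0.72 (SE 0.23). This missed the threshold in edgeR (adjusted p = 0.0534) and passed it in DESeq2 (adjusted p = 0.035), the only 1 of 10 other settings in which it did. Without control fetus 4, the highest, the change was -0.52 (edgeR adjusted p = 0.0681). The other arm, miR-432-3p, had at most 1 read in any library.

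Against its neighbours on the same antisense transcript, miR-432-5p was lower as well. The number of miR-432-5p reads per read of miR-127-3p, which needs no scaling, was 0.00853 to 0.0116 in controls and 0.00408 to 0.00669 with maternal obesity. Per read of miR-136-3p it was 0.0976 to 0.158 in controls and 0.0571 to 0.0755 with maternal obesity. Neither ratio overlapped between the groups, and control fetus 4 had the highest value of both. These ratios were formed with the result for miR-432-5p known and carry no test.

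Of the other antisense members, miR-431-5p averaged 108.1 ± 29.6 CPM in controls and stood at 77.0, 168.8, 202.5, 179.1 and 155.4 CPM in obese-group fetuses 1 to 5. Its log2 change was 0.54 (SE 0.25, edgeR adjusted p = 0.204), with 3 obese-group fetuses above the highest control (164.3 CPM) and 1 below the lowest (84.2 CPM). Without that one, obese-group fetus 1, the change was 0.74 and passed (edgeR adjusted p = 0.032). The second arm, miR-431-3p, stood at 0 to 7.36 CPM in controls (at most 2 reads) and at 3.02 to 19.6 CPM with maternal obesity, and the groups overlapped. The minor arm miR-127-5p averaged 43.6 ± 25.2 and 39.1 ± 5.22 CPM, with a log2 change of -0.15 (SE 0.34, adjusted p = 0.847), and of 0.07 without control fetus 4. For miR-433 there were at most 12 reads in any library.

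Members upstream of RTL1 were scarce. The MEG3 intron holds mir-770, and miR-770-5p had 0 reads in each control and 1 read in each of obese-group fetuses 2 and 3. The hairpins between MEG3 and RTL1 (miR-493, miR-337 and miR-665) held 0.0309% ± 0.0103 of known-miRNA reads in controls and 0.0307% ± 0.00625 with maternal obesity. Of their 3 tested members, 0 passed the edgeR test over all livers, 0 passed in DESeq2, and 0 had an unadjusted p under 0.05. The level of miR-337-3p ran from 29.5 to 114.1 CPM in controls, median 46.1, and was 34.7, 36.9, 32.7, 39.3 and 28.3 CPM in obese-group fetuses 1 to 5. Its log2 change was -0.62 (SE 0.30, edgeR adjusted p = 0.226), and -0.28 without control fetus 4, the highest control. The other arm, miR-337-5p, stood at 0 to 22.7 CPM in controls (at most 7 reads) and at 15.1 to 32.7 CPM with maternal obesity, and the groups overlapped.

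Between RTL1 and the large run lies mir-370, whose product has been reported in human liver cells to target CPT1A, the carnitine palmitoyltransferase of fatty acid oxidation. In these livers miR-370 averaged 47.8 ± 23.1 CPM in controls and 47.2 ± 4.76 with maternal obesity. Its log2 change was -0.02 (SE 0.28, edgeR adjusted p = 0.985), or 0.20 without control fetus 4 (adjusted p = 0.673), and the groups overlapped.

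The run from miR-379 to miR-656 holds most of the hairpins, with 57 mature names, 53 of them with reads and 28 tested. It took up 2.02% ± 0.3603 of known-miRNA reads in controls and 2.61% ± 0.423 with maternal obesity. Of the 28, 13 had a positive and 15 a negative log2 change, with a median of -0.01, and 2 passed the edgeR test, both higher. Those 2 were the arms of a single hairpin, mir-411.

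Levels of miR-411-5p rose with maternal obesity, and every liver of that group lay above the controls. Controls ran from 6031 to 8546 CPM with a median of 7243, on 1637 to 2393 reads. Obese-group fetuses 1 to 5 had 9781, 12985, 12731, 11054 and 13527 CPM, on 6479 to 9845 reads. The highest control was below all 5, and obese-group fetus 1, the lowest of its group for most members, was the nearest to the controls. The means were 7201 ± 920 CPM (n = 6) and 12016 ± 1554 CPM (n = 5), a log2 change of 0.74 (SE 0.12, edgeR adjusted p = 0.00229).

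The call for miR-411-5p held when each of the 11 livers was left out (log2 changes of 0.71 to 0.84, adjusted p of 0.00202 to 0.00803) and in 10 of 10 other settings. At equal depth, with every library thinned to the same number of reads, the log2 change was 0.72 (adjusted p = 0.00506). Each set of library numbers holds 1 maternal group, so a comparison inside a set was not possible.

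The minor arm moved with the major one. Controls had 55.3 to 135.7 CPM of miR-411-3p, median 76.0, on 15 to 38 reads. Obese-group fetuses 1 to 5 had 114.7, 150.4, 154.2, 123.4 and 169.5 CPM, on 76 to 118 reads. The lowest obese-group levels overlapped with control fetus 5, the highest control, and 3 of 5 lay above it. The means were 82.7 ± 28.7 and 142.4 ± 22.7 CPM, a log2 change of 0.78 (SE 0.22, edgeR adjusted p = 0.0321). With 1 liver left out at a time the change stayed at 0.70 to 0.99 but passed the threshold in 3 of 11 fits (adjusted p of 0.00819 to 0.0879). Those 3 left out control fetus 5, obese-group fetus 1 or obese-group fetus 4. It also missed the threshold with total counts (adjusted p = 0.0547).

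Next to mir-411 in the run stands mir-379, the hairpin that gives the run its name and whose miRNA has been linked to lipid handling in mouse liver. Levels of miR-379-5p ran from 314.3 to 411.4 CPM in controls, median 381.8, and were 317.0, 374.6, 308.4, 271.3 and 356.3 CPM in obese-group fetuses 1 to 5. The groups overlapped, with means of 369.2 ± 36.9 and 325.5 ± 40.8 CPM and a log2 change of -0.18 (SE 0.13, edgeR adjusted p = 0.410). The other arm, miR-379-3p, averaged 41.3 ± 19.3 and 39.4 ± 10.5 CPM (log2 change of -0.06, SE 0.30, adjusted p = 0.944; 0.14 without control fetus 4).

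The pair of neighbours therefore stood in a different ratio in the maternal groups. There were 16.0 to 27.2 reads of miR-411-5p per read of miR-379-5p in controls and 30.9 to 41.3 with maternal obesity, with no overlap. Per read of miR-127-3p there were 0.288 to 0.544 in controls and 0.557 to 0.699 with maternal obesity, again with no overlap. Per read of miR-381 there were 1.49 to 2.18 and 2.14 to 3.36, and the groups overlapped by obese-group fetus 1. These ratios of reads from 1 library need no scaling factor, and as miR-411 was picked with its result known they carry no test.

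**Figure D3:**
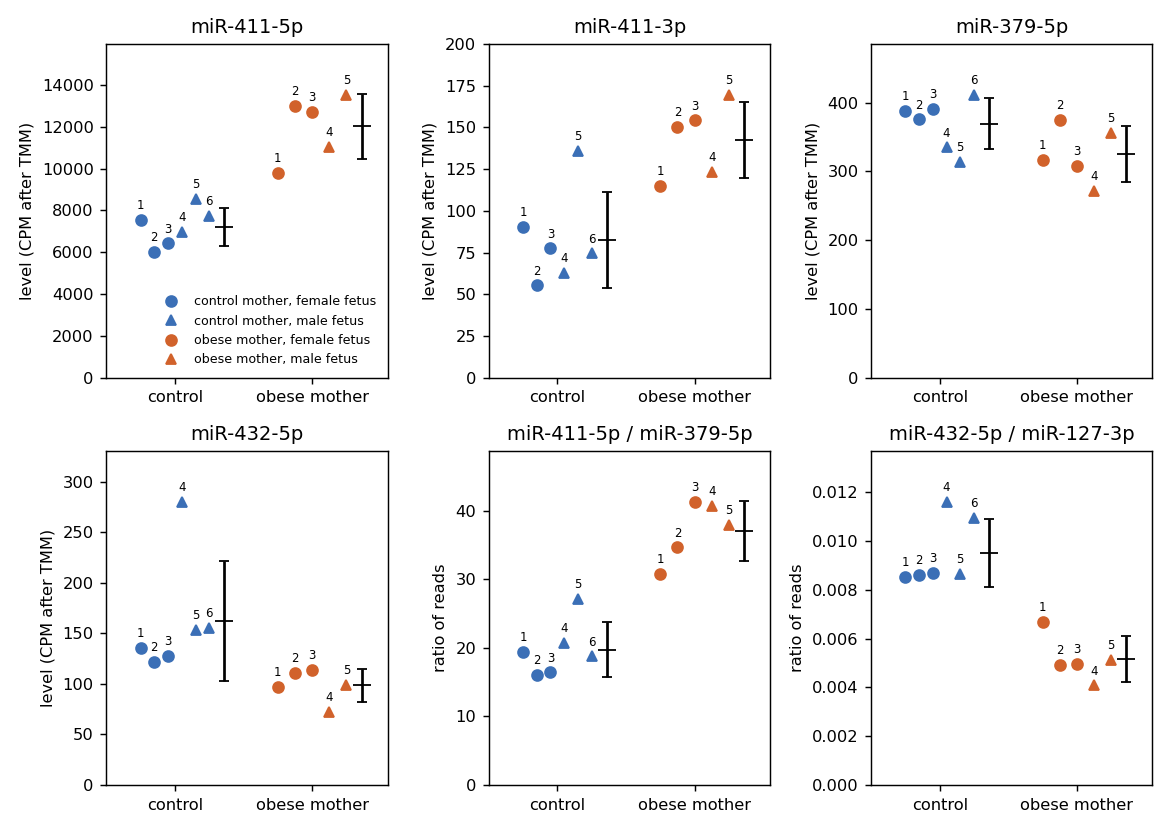
Levels in CPM after TMM scaling of miR-411-5p, miR-411-3p, miR-379-5p and miR-432-5p, and ratios of reads of miR-411-5p to miR-379-5p and of miR-432-5p to miR-127-3p, with 1 numbered point per fetus, circles for females and triangles for males, and bars for mean ± SD. For miR-411-5p all obese-group fetuses (9781 to 13527 CPM) lie above all controls, for miR-432-5p all lie below (71.9 to 113.7 CPM), and miR-379-5p overlaps.

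The other abundant members of the run differed between the groups by less than the test could call. Levels of miR-381 ran from 3453 to 4614 CPM in controls, median 3923, and were 4562, 5637, 4510, 4050 and 4023 CPM in obese-group fetuses 1 to 5. Only obese-group fetus 2 was above all controls, and the log2 change was 0.19 (SE 0.13, edgeR adjusted p = 0.362), or 0.10 without that fetus. Reads of the near-identical miR-300 were not found, and the sources used here do not say how the authors' counting divides reads between such pairs.

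The last miRNAs of the run include miR-410, which ran from 1671 to 2879 CPM in controls, median 2060, and stood at 2169, 3581, 2689, 2520 and 2555 CPM in obese-group fetuses 1 to 5. Again only obese-group fetus 2 exceeded every control. The log2 change was 0.33 (SE 0.16, edgeR adjusted p = 0.226), or 0.21 without that fetus.

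Levels of miR-654-3p averaged 1535 ± 202.99 CPM in controls and 1771 ± 251 with maternal obesity, with 4 of 5 obese-group fetuses (1820 to 1948 CPM) above the highest control (1782 CPM). The fifth, obese-group fetus 1, had 1335 CPM, and the log2 change was 0.21 (SE 0.13, edgeR adjusted p = 0.358), or 0.33 without it (adjusted p = 0.152). The remaining members among the 10 most abundant were miR-409-3p (log2 change of 0.06), miR-889 (-0.07), miR-299-3p (0.02) and miR-369-3p (0.18), with edgeR adjusted p-values of 0.858, 0.847, 0.980 and 0.466. Their groups overlapped. With single livers left out the first 3 changed sign in some fits, and the change of miR-369-3p ran from 0.12 to 0.28. Without control fetus 4 the 4 changes were 0.13, -0.04, 0.21 and 0.24.

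Rarer members with larger changes showed wider spreads. Levels of miR-369-5p ran from 22.1 to 93.9 CPM in controls, with a mean of 56.3 ± 24.8, and were 78.5, 87.1, 125.4, 107.2 and 87.9 CPM in obese-group fetuses 1 to 5. Obese-group fetuses 3 and 4 were above every control. The log2 change of 0.78 (SE 0.27) missed the threshold in edgeR (adjusted p = 0.0909), and passed without control fetus 6 (0.99, adjusted p = 0.0435) and in DESeq2 (adjusted p = 0.0383).

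Levels of miR-380-3p averaged 102.3 ± 23.5 CPM in controls and 143.02 ± 32.1 with maternal obesity, and 4 of 5 obese-group fetuses were above every control. The log2 change was 0.49 (SE 0.21, edgeR adjusted p = 0.187). In the other direction, miR-299-5p averaged 180.6 ± 50.4 CPM in controls and 119.5 ± 41.4 with maternal obesity. It had a log2 change of -0.59 (SE 0.26, adjusted p = 0.190), with 2 obese-group fetuses below every control. It was -0.75 when control fetus 4, here the lowest control, was left out, and then passed (edgeR adjusted p = 0.0473). Levels of miR-134, which limits the size of dendritic spines in rat neurons, averaged 156.5 ± 47.6 and 117.9 ± 29.7 CPM, with a log2 change of -0.40 (SE 0.23, adjusted p = 0.311), or -0.26 without control fetus 4.

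The miR-376 family, whose precursors are known targets of A-to-I editing in human and mouse tissues, had negative log2 changes in all 3 tested members. They were -0.34 for miR-376a-3p, -0.40 for miR-376b and -0.38 for miR-376c, with SE of 0.27, 0.30 and 0.23 and edgeR adjusted p-values of 0.465, 0.435 and 0.346. Control fetus 4 was the highest of all livers for each, and without it the changes were -0.02, -0.25 and -0.15 (adjusted p = 0.945, 0.629 and 0.568). Its miR-376c level was 364.5 CPM, against 145.8 to 192.03 CPM in the other controls. The members of this family are close in sequence, so the division of reads among them is uncertain. The other arm, miR-376a-5p, had 1 to 16 reads per library.

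The arms of 1 hairpin come from the same precursor, so their ratio within a library does not depend on scaling. Both arms were named for 23 cluster hairpins. Over all libraries the 3p arm had more reads at 16 of them, and in each of the 11 livers at 12. The 5p arm had more at 7, and in each of the 11 at 6.

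The most abundant hairpins used nearly a single arm. For mir-127 the 3p arm held 99.8% of reads, for mir-654 98.7% and for mir-409 98.5%. On the other side, the 3p arm held 1.16% at mir-411, 0.636% at mir-432 and 10.5% at mir-379. Hairpins with both arms in use included mir-382 (38.3% on the 3p arm), mir-493 (33.1%) and mir-485 (56.9%), and the arm with more reads differed between libraries at mir-382 and mir-485. Adjacent hairpins differed in arm, since mir-411 and mir-379 used the 5p arm, while mir-299 (75.1% on the 3p arm) and mir-380 (100%) beside them used the 3p arm.

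**Figure D4:**
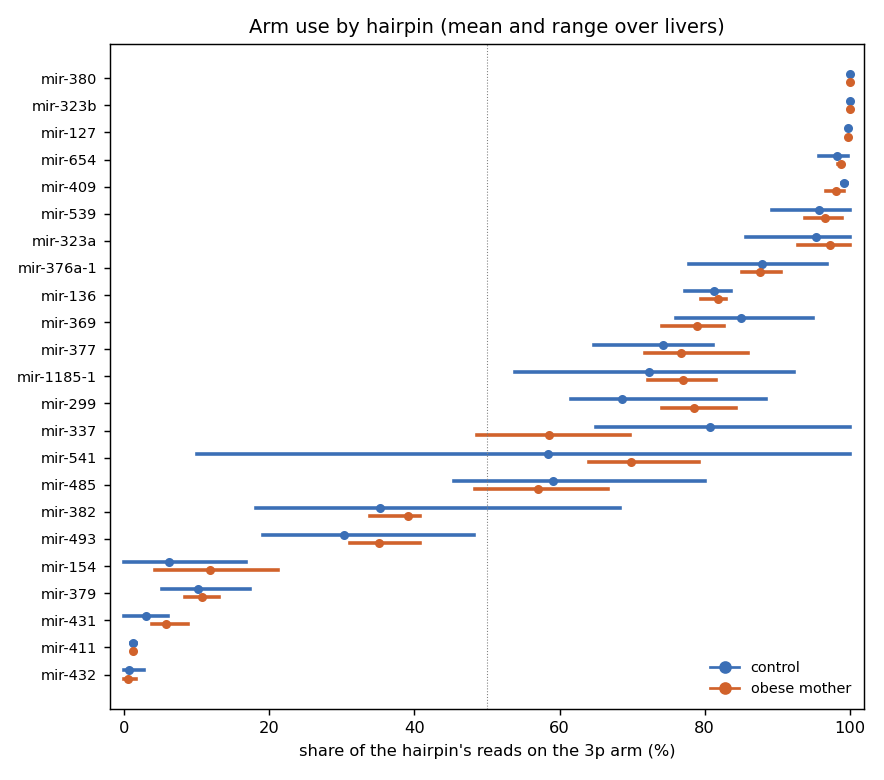
Share of each hairpin's reads on the 3p arm (%) for the 23 cluster hairpins with both arms named, with points for the mean and lines for the range over the livers with reads, blue for control and orange for obese mothers. The ranges of the maternal groups overlap at all 23 hairpins, and mir-127 (99.8%) and mir-411 (1.16%) stand near the ends in both.

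Arm ratios (5p over 3p reads) were tested at the 39 hairpins of any locus with both arms past the filter (limma on log2 ratios with 0.5 added to each count), of which 2.56% were called. Of the 8 cluster hairpins among them, 0 were called by limma and 0 had an unadjusted p under 0.05. The lowest adjusted p was 0.322, at mir-299 (a difference of -0.68, SE 0.37) and at mir-369 (0.68, SE 0.35). Control fetus 4 was the lowest liver at both, with log2 ratios of -2.92 at mir-299 and -4.11 at mir-369. Without it the difference at mir-299 was -1.02 (SE 0.20) and passed (limma adjusted p = 0.0043), as 1 of 3 calls over the 39 hairpins. That at mir-369 was then 0.38 (SE 0.22, adjusted p = 0.339). At mir-411, where both arms rose, the log2 ratio was 6.47 ± 0.308 in controls and 6.396 ± 0.063 with maternal obesity, a difference of -0.07 (SE 0.16, adjusted p = 0.827). In reads this was 92.2 ± 18.95 of miR-411-5p per read of miR-411-3p in controls and 84.7 ± 3.71 with maternal obesity.

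The sexes were compared next, since the share of the cluster differed between control females and control males. It was 3.61%, 3.15% and 3.11% in the 3 control females and 5.40%, 4.51% and 3.90% in the 3 control males. In the obese group it was 3.72%, 5.90% and 5.49% in the 3 females and 4.23% and 4.70% in the 2 males. Control females and males did not overlap, but with 3 livers of each and the difference already seen, this carries no test. Without control fetus 4 the mean of the control males was 4.20% instead of 4.60%. The share in females of obese mothers spanned that of all males.

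In females, 1 of 38 members passed the test of maternal obesity, as higher, against 5.96% of all tested miRNAs (2.75% as higher). It was miR-411-5p, at 6660 ± 778 CPM in control females (n = 3) and 11833 ± 1781 CPM in females of obese mothers (n = 3), a log2 change of 0.83 (SE 0.16, edgeR adjusted p = 0.0201). The call held in 7 of 11 fits that left out 1 liver, but males are not part of this contrast. Of the fits without a female liver, it held only without obese-group fetus 1 or 3. It was lost without control fetus 1, 2 or 3 or obese-group fetus 2, with adjusted p of 0.0608, 0.0943, 0.103 and 0.118. Second by adjusted p among the members was miR-410, at 1803 ± 123.5 and 2813 ± 714 CPM, with a log2 change of 0.64 (SE 0.19, adjusted p = 0.0660). Of the 38 members 27 were positive, with a median log2 change of 0.25, against 46.3% positive and a median of -0.05 over all tested miRNAs. The female median was 0.12 without control fetus 3, 0.16 without obese-group fetus 2 and 0.44 without obese-group fetus 1. Leaving out control fetus 4 gave calls for 3 of 42 members in females, and 25 of 242 miRNAs over the whole table.

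In males, 1 of 38 members passed, as lower, against 4.13% of all tested miRNAs (1.83% as higher and 2.29% as lower). It was miR-432-5p, with 279.8, 153.6 and 155.5 CPM in control males 4 to 6 and 71.9 and 98.9 CPM in obese-group males 4 and 5. The log2 change was -1.20 (SE 0.29, edgeR adjusted p = 0.0402). Without control fetus 4 it was -0.89 (adjusted p = 0.103), and the call held in 1 of 11 fits that left out 1 liver (control fetus 5) and was lost with male livers fitted alone (adjusted p = 0.252). In females miR-432-5p averaged 128.4 ± 6.99 CPM in controls and 107.0 ± 9.13 with maternal obesity, with a log2 change of -0.26 (SE 0.26, adjusted p = 0.683). The change of miR-411-5p in males was 0.67 (SE 0.18, edgeR adjusted p = 0.0579).

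The lean of the members in males was the reverse of that in females and was lost with 1 liver left out. Of the 38, 28 were negative, with a median log2 change of -0.21, against 44.5% positive and a median of -0.04 over all tested miRNAs. Without control fetus 4, 22 of 42 tested members were positive, with a median of 0.02. The median was -0.15 without obese-group fetus 4, which leaves 1 male in that group. With total counts the medians of all tested miRNAs were 0.08 in females and -0.19 in males, beside member medians of 0.38 and -0.37.

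**Figure D5:**
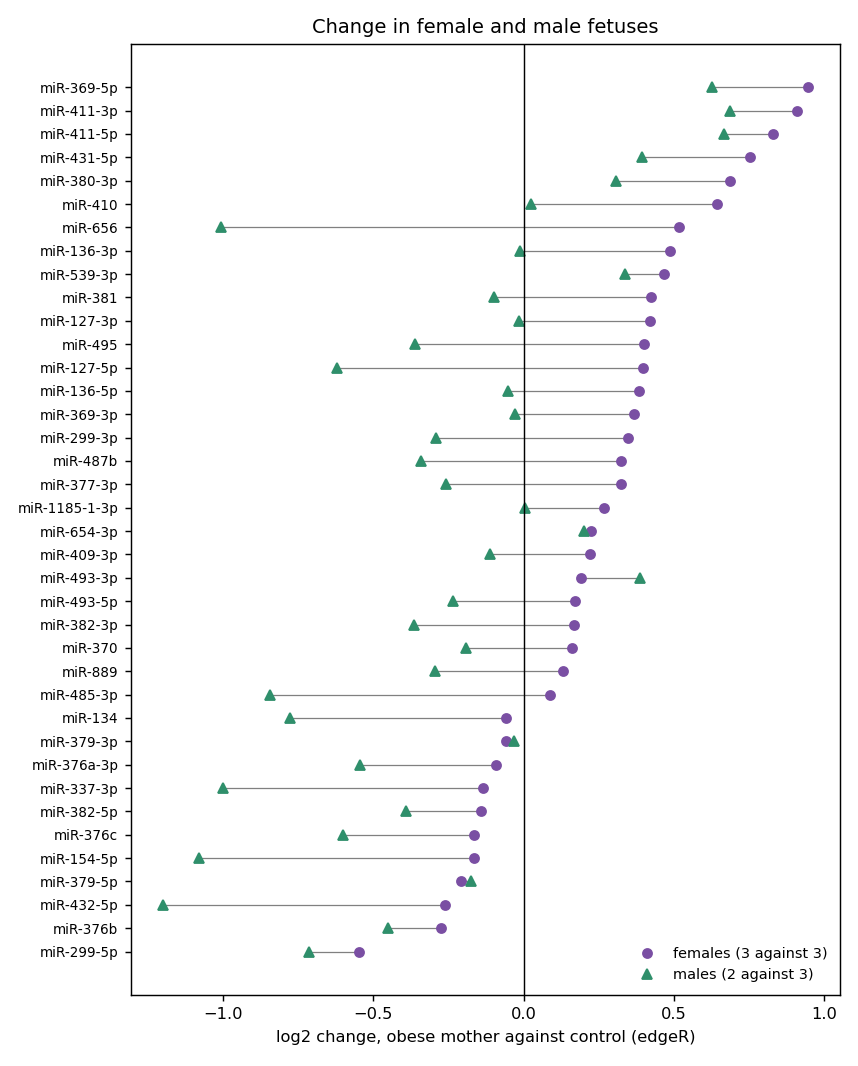
Log2 change with maternal obesity (edgeR) of the 38 tested cluster miRNAs in females (purple circles, 3 against 3) and in males (green triangles, 2 against 3), joined by a line per miRNA. For 35 of 38 the male value lies to the left of the female one, and 0 of these differences passed the test.

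The difference of the effects between the sexes was tested directly. In edgeR it called 0 of 38 members, as did DESeq2 and limma-voom with 0 each, and 3 had an unadjusted p under 0.05 in edgeR, against 6.42% of all tested miRNAs. The lowest adjusted p was 0.575. The difference, male minus female effect, was negative for 35 of 38 members with a median of -0.43 on the log2 scale, against 45.4% positive and a median of -0.05 over all tested miRNAs. It was negative for 34 of 42 without control fetus 4 (median -0.33) and for 38 of 38 without obese-group fetus 1 (median -0.61). The lean of all tested miRNAs depended on the scaling and the filter. With total counts 21.1% of them were positive, with a median of -0.33 beside -0.71 for the members, and without a filter the medians were -0.20 and -0.51. Members share transcripts and libraries and are not independent, so these counts are a description. The widest difference was that of miR-656, the last miRNA of the run, at 0.52 in females and -1.005 in males (difference -1.52, SE 0.70, edgeR adjusted p = 0.575), on 5 to 40 reads per library.

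Males and females were also compared over both maternal groups. In edgeR 0 of 38 members passed, and 0 had an unadjusted p under 0.05, against 10.1% of all tested miRNAs. DESeq2 and limma-voom called 0 as well. The log2 difference, male minus female, was positive for 31 of 38 members with a median of 0.11, against 52.3% and a median of 0.01 over all tested miRNAs. It was positive, with control fetus 4 left out, for 25 of 42 members, with a median of 0.03, and the median reached 0.24 without obese-group fetus 4.

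Other imprinted miRNAs outside the cluster were set beside it. A list of 66 names from the H19, IGF2, MEST and GNAS loci and the primate cluster on chromosome 19 had 22 names with reads and 5 tested. Of these 5, miR-675-3p, which is cut from the imprinted noncoding RNA H19, fell from 62.6 ± 34.7 to 27.1 ± 7.67 CPM, a log2 change of -1.20 (SE 0.33, edgeR adjusted p = 0.031). This miRNA had 8 to 35 reads per library, and fits with single livers left out are not reported for it. Its other arm, miR-675-5p, had 2 to 16 reads per library and did not reach the filter. The other 4 tested names were not called, with log2 changes of -0.43 for miR-335-5p, 0.35 for miR-335-3p, -0.32 for miR-483-5p and -0.21 for miR-483-3p. Of the miRNAs at 14q32 but outside the imprinted domain, miR-342-3p was the only one tested, with 93.9 ± 16.7 and 69.6 ± 12.8 CPM and a log2 change of -0.43 (SE 0.19, adjusted p = 0.190).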

How the data were processed

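Small RNA libraries of 11 fetal livers were sequenced for 36 cycles, 12 to a lane, after Illumina TruSeq small RNA preparation, per the labels' protocols. The authors deposited unscaled whole-number counts of reads for each mature miRNA on each precursor, 1 column per library, in a workbook named for miRDeep2. Per the submitters' processing notes the build was hg18, and the names are human, whereas the reads are from baboon. Versions, aligner and mismatch settings were not stated. The table repeats its 2234 rows, which were each used 1 time, and for a name on several precursors (3 of the members) only the row of highest total was used. Mature sequences were not used here, and reads of different miRNAs were not calibrated against each other.

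The quasi-likelihood test of edgeR 4.0.16 (under R 4.3.3) was run on the counts with TMM factors (0.918 to 1.10) and filterByExpr by maternal group, which needs a minimum level in as many livers as the smaller group holds, so that a miRNA high in 1 group alone could pass. P-values were adjusted by Benjamini-Hochberg over 218 miRNAs, with a threshold of 0.05. SE is the log2 change divided by the square root of F. Effects within sexes came from 1 model with a mean per maternal group and sex. Arm ratios were tested in limma 3.58.1 over 39 hairpins. Alternatives were RLE factors, total counts, TMM without the cluster, no filter, DESeq2 1.42.0, limma-voom, sex as a covariate, a replicate block, thinning, summed precursor rows, single-sex fits and each liver left out. The edgeR test of maternal obesity over all livers and the ratio test were tried on simulated data, and the other models and contrasts were not. Medians and counts over members describe them without a test. Members, lists and alternatives were chosen with earlier results of these data known. The text names members called in any comparison, the 10 most abundant, the 10 with the lowest p, the miR-376 family, and the other arms of these. Of those arms, miR-409-5p (93 reads over all libraries) and miR-654-5p (121 reads) appear only through the arm shares of their hairpins. A few more, such as miR-656, miR-370 and miR-379, were added after their values were seen. A part of the rule on shared seeds was not applied.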

Additional observations from a re-analysis of the deposited data

Results flagged for a closer look

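In a group of 4 to 10 livers, a level was marked when the gap between the most extreme liver and its nearest neighbour exceeded Dixon's limit for that group. Of 48 checks 10 were marked, and chance marks about 1 in 20. Control fetus 4 accounted for 7 of the 10, each as the highest control, with 24136 CPM of miR-127-3p, 371.9 CPM of miR-136-5p, 710.6 CPM of miR-299-3p, 114.1 CPM of miR-337-3p, 265.1 CPM of miR-376a-3p, 364.5 CPM of miR-376c and 279.8 CPM of miR-432-5p. These levels come from 1 library and are not independent, and that library also had the highest TMM factor (1.10). Control fetus 5 was marked for a high miR-431-5p level (164.3 CPM), obese-group fetus 1 for a low miR-654-3p level (1335 CPM) and obese-group fetus 2 for a high miR-889 level (1303 CPM). What set these livers apart was not tested.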

How the results depend on the processing

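Counts of called members are given here with the count over all tested miRNAs in brackets. Over all livers the 2 members (24) became 1 with total counts (20), 4 in DESeq2 (29), which added miR-369-5p and miR-432-5p, 1 with the replicate block (17), and 1 to 3 with 1 liver left out (16 to 26). In females the 1 member (13) became 2 without a filter (19), 2 in DESeq2 (19), and 0 to 3 with 1 liver left out (0 to 25). In males the 1 member (9) became 2 with RLE factors (11), 4 without a filter (27), 2 in DESeq2 (18), 0 with male livers alone (0), and 0 to 1 with 1 liver left out (0 to 13). The test of the difference between sexes called 1 member without a filter (11), and the arm-ratio test called 1, mir-299, without control fetus 4 (3 of 39 hairpins). With the 3 most abundant miRNAs left out of the total, the cluster's share was 7.61% in controls and 8.96% with maternal obesity. The cause of these shifts was not tested. Among the 29 members named by the rule, those below the threshold changed sign in 13 of the values computed under alternatives. That count leaves out miR-370, miR-379 and miR-656, and the signs of miR-370 and miR-379-3p also changed with single livers left out. Same-numbered livers of the 2 groups had correlations of 0.305, -0.0497, 0.0793, -0.160 and 0.184 in their deviations, and 2 of 5 controls correlated best with their own number, so the numbers were not taken as pairs. With the replicate block miR-411-5p passed (adjusted p = 0.019) and miR-411-3p did not (adjusted p = 0.0682). Depth limits the rare members: at 3 reads, the detection limit per control library was 9.38 to 12.1 CPM.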
